A study of Rattus norvegicus with 8 samples.

Results

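The genes described here encode potassium channels outside the Shaker family, together with some of their small auxiliary subunits. They were taken as the protein-coding sites whose symbol begins with Kcn, leaving out the Shaker genes (Kcna) and the Kv channel interacting proteins (Kcnip). This gave 539 polyadenylation sites of 50 genes, out of 73922 sites and 12255 genes, and the rule reads gene names, not measured values. The sites were counted by whole transcriptome termini site sequencing (WTTS-seq), which reads where polyadenylated RNA ends, and the tissue was hypothalamus from 8 male Long-Evans rats, all adult. According to the labels, 4 rats had diet-induced obesity after free access to a high fat diet and 4 control rats were kept on standard chow, with brain tissue collected after 36 days. The labels name no genetic change and no treatment other than the diet, and there is 1 library per rat. All coordinates are on the Rnor_6.0 assembly.

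The libraries held 1417531 to 1957726 reads. Of all reads, 0.367 to 0.403% lay at the 539 potassium channel sites in control and 0.399 to 0.506% in obesity, 56672 reads in all. More of these sites were at 0 reads in the libraries numbered 1, with 124 in control library 1 and 80 in obesity library 1, than in the other libraries, with 26 to 53. The tissue label was checked against 12 markers of the hypothalamus such as Avp, Oxt, Pmch and Hcrt. All 12 were in the table, and they summed to 1242 to 1654 CPM in control and 1025 to 1273 CPM in obesity. Most of this was Avp, at 812 to 1174 CPM in control and 601 to 798 CPM in obesity, while Nkx2-1 had 0 to 15 reads per library. All 5 listed markers of the thalamus were in the table too, summing to 146 to 231 CPM in control and 104 to 253 CPM in obesity. Presence in the table alone therefore cannot settle the tissue. CPM, the usual count unit scaled to sequencing depth, was taken relative to a library's reads at sites with a gene after TMM scaling. Because a 3′ end gives about 1 read per RNA, no division by length was made, and RNA ends primed inside A-rich stretches can add to a gene's sum.

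Potassium channels let potassium leave the neuron and so pull the membrane back towards rest. Voltage-gated members end the action potential or delay the next one, calcium-activated members follow firing with an afterhyperpolarisation, inward rectifiers and leak channels hold the resting potential, and silent and auxiliary subunits tune the pores that they join. In the hypothalamus they are known for shaping the firing of neurons that control feeding, and the ATP-sensitive channel built on Kcnj11 couples firing there to glucose.

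The 50 genes spanned a wide range of levels, and a small part of them carried a large share of the sum. The highest was Kcnd2, at 903 ± 171 CPM in control and 970.5 ± 40.2 CPM in obesity, and the lowest was Kcne3, at 1.76 ± 1.36 CPM in control and 3.41 ± 4.55 CPM in obesity (mean ± SD, n = 4). The 5 highest genes, among them Kcnd2, Kcnq3, Kcnma1 and Kcnc1, held 49.5% of the summed CPM. A mean under 10 CPM was found for 16 genes, and 8 genes had at least 1 library at 0 reads.

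**Figure D1:**
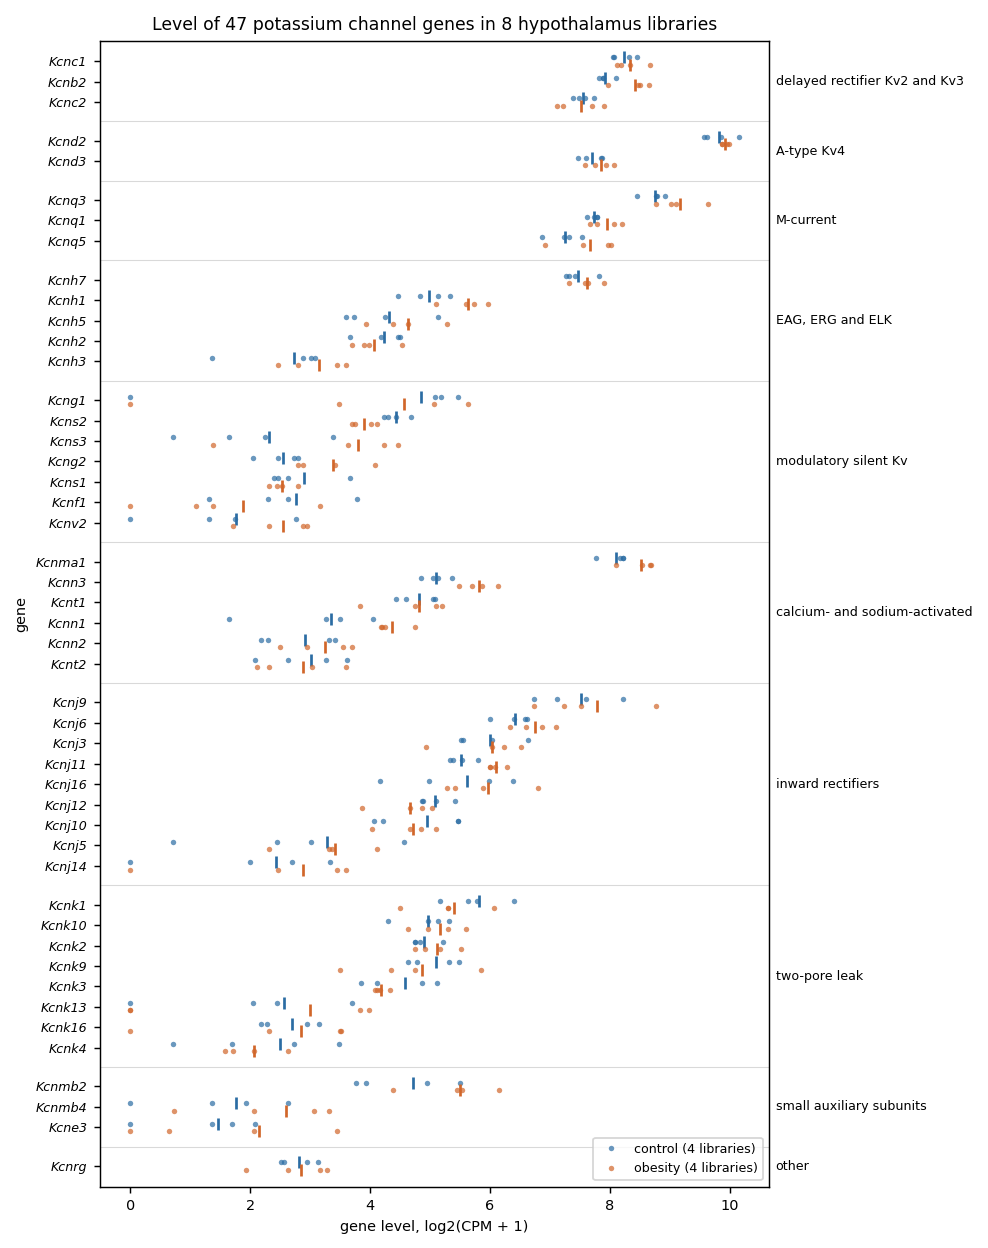
Level in each library of 47 of the 50 genes, as log2(CPM + 1) on the horizontal axis, with genes grouped by role and ordered by mean level. Each point is 1 library (4 control in blue, 4 obesity in orange) and each vertical tick is the group mean. The points of the 2 diets overlap for nearly every gene, and Kcng1 is at 0 in both libraries numbered 1.

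Summed over the 50 genes, the level was 4872, 4361, 4075 and 4619 CPM in control libraries 1 to 4 and 5867, 4609, 5119 and 5856 CPM in obesity libraries 1 to 4. Obesity library 2 lay within the control range and the other 3 obesity libraries lay above it, so the groups overlapped. The means were 4482 ± 342 CPM in control and 5363 ± 612 CPM in obesity. Of the 50 genes, 34 had a fitted log2 fold change above 0 and 16 below it, with a median of 0.21 against 0.0087 over all 12255 genes. Over all genes 50.8% lay above 0. Wherever 4 values are given for a group they stand in the order of the library numbers 1 to 4. Fitted log2 fold changes, obesity over control, are given ± their standard error, with the p of edgeR's quasi-likelihood test adjusted over all genes, or over all sites for a single site. Which genes had an unadjusted p under 0.05 is given as counts and names.

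No single gene of the 50 passed the test after correction. In edgeR's quasi-likelihood test, with Benjamini-Hochberg adjustment over all 12255 genes, 0 had an adjusted p under 0.1, as did 0 of all genes (0.0%). At an unadjusted p under 0.05, 5 genes were higher in obesity (among them Kcnb2, Kcnn3, Kcnj11 and Kcns3) and 0 were lower, where 2.77% of all genes were higher and 2.52% lower. Libraries with the same number in both groups deviated together, and with the library number as a block 11 genes were higher and 0 lower, against 5.03% and 5.83% of all genes. The 6 further genes were Kcnmb2, Kcnq3, Kcnma1, Kcnn1, Kcnq5 and Kcnh1. With the block 0 of the 50 had an adjusted p under 0.1, against 0.122% of all genes. DESeq2 with the same block gave 2 of the 50, among them Kcnb2 at an adjusted p of 0.0884, against 5.05% of all genes to which it gave an adjusted p (15 of the 50). Without both libraries numbered 2 the fit with the block gave 4 of the 50 an adjusted p under 0.1, among them Kcnb2, Kcnq3 and Kcnma1, against 4.63% of all genes. Leaving out single libraries without the block, the count of higher genes at an unadjusted p under 0.05 ran from 2, without control library 2 or without obesity library 4, to 8, without obesity library 2, and the count of lower genes was 1 without obesity library 2 and 0 otherwise.

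Without overlap between the groups, 3 genes were higher in obesity (Kcnj11, Kcnn3 and Kcnn1), where 1.84% of all genes were, and 1 was lower (Kcns2), where 1.67% were. In all 4 pairs of same-numbered libraries 10 of the 50 genes were higher in obesity (9.24% of all genes), and 1 of the 50 was higher in none of the pairs (9.91% of all genes). In whole tissue, more RNA per cell and more cells of a type cannot be told apart. Of 45 marker genes in the table, 3 were higher in obesity and 6 lower at an unadjusted p under 0.05. The shares of all genes were 2.77% and 2.52%. With the block 4 were higher and 7 lower, against 5.03% and 5.83%. In edgeR 0 had an adjusted p under 0.1 in either fit. DESeq2 with the block gave an adjusted p of 0.0466 for Stmn2, 0.0537 for Aldoc and 0.0696 for Avp, all lower in obesity. Of all genes to which it gave an adjusted p, 5.05% were under 0.1. The lower genes included the neuronal Stmn2 (291 CPM in control, 191 CPM in obesity), lower in all 4 pairs, although the 4 neuronal genes in the table summed to 2081 to 2837 CPM in control and 2158 to 2819 CPM in obesity. They also included the hypothalamic peptides Avp (952 CPM in control, 702 CPM in obesity), Oxt (60.6 CPM in control, 36.4 CPM in obesity) and Sst (15.6 CPM in control, 6.05 CPM in obesity), all without overlap. The other 2 lower genes were Aldoc, of astrocytes, and Csf1r, of microglia. Aldoc averaged 926 CPM in control and 640.2 CPM in obesity, and Csf1r 62.9 CPM in control and 36.1 CPM in obesity. Their lists did not move as a whole. Of the 6 astrocyte genes, 4 had a log2 fold change below 0, while Aqp4 was at 0.34 and Slc1a2 at 0.022. C1qb, the only other microglia gene measured, was at 0.26. Aqp4, Slc1a2 and C1qb did not reach an unadjusted p under 0.05. The 3 higher genes were Crh, Sim1 and Gh1, and with the block Pomc was also lower and Ttr also higher. Crh, also a hypothalamic peptide, averaged 2.76 CPM in control and 9.15 CPM in obesity, without overlap, on 1 to 26 reads per library. Sim1, of the same list, averaged 9.36 CPM in control and 20.7 CPM in obesity, and its groups overlapped. The hypothalamus list did not move as a whole either, with 5 of its 12 genes above 0 in log2 fold change and 7 below. Gh1 and Ttr each rested on 1 library, Gh1 with 87 reads in obesity library 2 and Ttr with 144 reads in obesity library 4. In the other libraries Gh1 was at 0 to 1 read and Ttr at 0 to 2 reads. All 7 oligodendrocyte genes had a log2 fold change below 0 and 0 had an unadjusted p under 0.05, with sums of 17044 to 21952 CPM in control and 13162 to 20659 CPM in obesity. Their part in the differences was not tested.

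**Figure D2:**
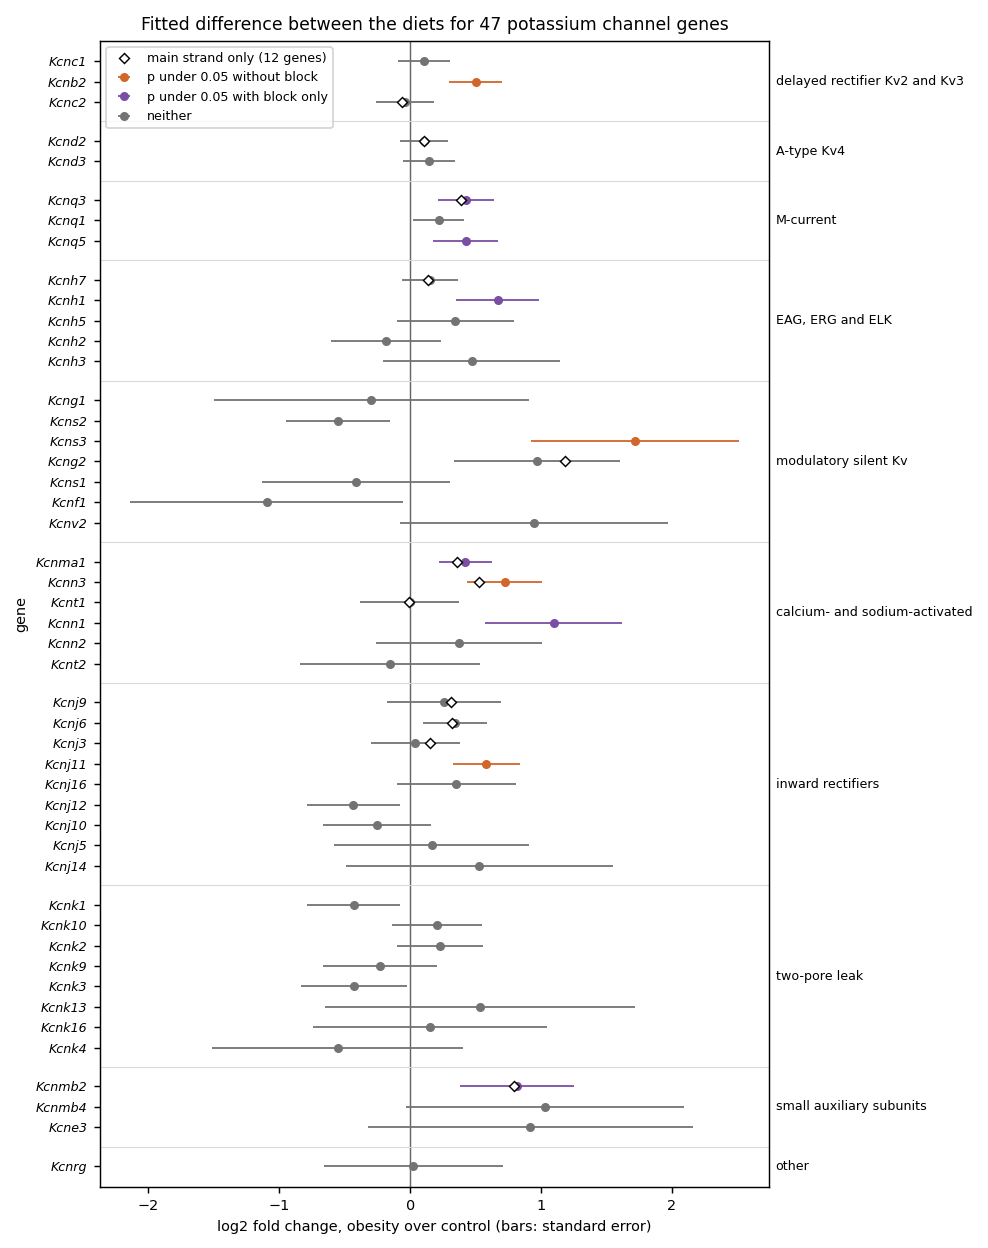
Fitted log2 fold change of 47 of the 50 genes, obesity over control, on the horizontal axis, with genes grouped by role. Filled points with bars are the edgeR estimate and its standard error over all sites, coloured by whether the unadjusted p was under 0.05 without the block (4 genes), only with it (6 genes) or neither, and open diamonds are estimates from the main strand for the 12 genes with sites on both strands. Most points lie right of 0, and the Kcnn3 diamond lies left of its filled point.

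The delayed rectifiers of the Kv2 (Kcnb) and Kv3 (Kcnc) families end the action potential and let neurons fire fast. Kcnb2, a Kv2 pore subunit, was at 235, 235, 224 and 274 CPM in the control libraries and 361, 251, 355 and 402 CPM in the obesity libraries (log2 fold change 0.50 ± 0.20, adjusted p = 0.904). It was higher in obesity in all 4 pairs, although obesity library 2 lay below control library 4. Kcnc1, a Kv3 subunit, was at 348, 319.6, 268 and 266 CPM in the control libraries and 405, 277, 322 and 291 CPM in the obesity libraries, and its groups overlapped (log2 fold change 0.11 ± 0.20, adjusted p = 0.979). Kcnc2, another Kv3 subunit, averaged 187 ± 19.6 CPM in control and 183 ± 47.6 CPM in obesity.

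The A-type genes of the Kv4 family, which carry the transient current that delays firing, summed to 1111 ± 158 CPM in control and 1200.3 ± 47.5 CPM in obesity. Kcnd2 was at 1135, 789, 762 and 926 CPM in the control libraries and 1015, 939.7, 933 and 994 CPM in the obesity libraries (log2 fold change 0.10 ± 0.19, adjusted p = 0.979). Kcnd3 was at 176, 232, 193 and 231 CPM in the control libraries and 192, 245, 215 and 268 CPM in the obesity libraries (log2 fold change 0.14 ± 0.20, adjusted p = 0.979). Control library 1 held the most Kcnd2 of all 8 libraries and the least Kcnd3, and both genes overlapped between the diets.

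The KCNQ genes, of which Kcnq3 and Kcnq5 contribute to the slow M-current that restrains repetitive firing, summed to 933 ± 44.1 CPM in control and 1164 ± 245 CPM in obesity. Kcnq3 was at 444, 487, 351 and 434 CPM in the control libraries and 551, 435, 519.9 and 798 CPM in the obesity libraries (log2 fold change 0.42 ± 0.21, adjusted p = 0.904, adjusted p = 0.325 with the block). The highest value was in obesity library 4, and obesity library 2 lay within the control range. Kcnq5 was at 184, 116, 158 and 150.3 CPM in the control libraries and 258, 119.9, 187 and 250.5 CPM in the obesity libraries (log2 fold change 0.42 ± 0.25, adjusted p = 0.912, adjusted p = 0.392 with the block), higher in obesity in all 4 pairs. Kcnq1, best known from heart and epithelia, was at 196, 219, 211 and 220.2 CPM in the control libraries and 295, 203, 219 and 268 CPM in the obesity libraries (log2 fold change 0.22 ± 0.20, adjusted p = 0.952).

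Of the ether-à-go-go related genes (EAG, ERG and ELK), Kcnh7, an ERG subunit, was the highest at 154, 169.8, 159 and 225 CPM in the control libraries and 192, 198, 158 and 238 CPM in the obesity libraries (log2 fold change 0.15 ± 0.21, adjusted p = 0.979). Kcnh1, the founding EAG subunit, was at 39.6, 34.2, 21.1 and 27.5 CPM in the control libraries and 33.4, 62.0, 52.1 and 47.6 CPM in the obesity libraries (log2 fold change 0.67 ± 0.32, adjusted p = 0.904, adjusted p = 0.396 with the block). Obesity library 1 lay within the control range and the other 3 obesity libraries lay above it. Kcnh5, the second EAG subunit, averaged 18.8 ± 10.5 CPM in control and 23.9 ± 10.1 CPM in obesity (log2 fold change 0.34 ± 0.45, adjusted p = 0.975). Both libraries numbered 1 were the highest of their groups. Kcnh2, an ERG subunit known from the heart, averaged 17.9 ± 4.63 CPM in control and 15.7 ± 4.54 CPM in obesity, and Kcnh3, an ELK subunit, 5.62 ± 2.74 CPM in control and 7.88 ± 3.14 CPM in obesity.

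The silent subunits, which form no channel alone and join Kv2 subunits, were low. Kcns3 was at 2.12, 0.646, 9.39 and 3.72 CPM in the control libraries and 17.8, 1.59, 11.3 and 21.1 CPM in the obesity libraries (log2 fold change 1.72 ± 0.79, adjusted p = 0.904, adjusted p = 0.331 with the block). This gene rests on 1 site with 1 to 32 reads per library, and obesity library 2 lay within the control range. Kcns2 was at 24.7, 20.7, 18.8 and 17.9 CPM in the control libraries and 16.3, 11.9, 12.5 and 15.2 CPM in the obesity libraries, with every obesity library below every control library, and did not reach an unadjusted p under 0.05 (log2 fold change -0.55 ± 0.39, adjusted p = 0.927). Kcng1 was listed at 0 reads in both libraries numbered 1 and at 18 to 61 reads in the other 6. Its mean was 27.8 ± 19.1 CPM in control and 22.8 ± 21.8 CPM in obesity. Kcng2, Kcns1, Kcnf1 and Kcnv2 had means of 2.41 to 9.45 CPM in either group, and none reached an unadjusted p under 0.05.

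The calcium- and sodium-activated pore genes summed to 358 ± 48.4 CPM in control and 484 ± 69.8 CPM in obesity, with obesity library 2 inside the control range. Kcnma1, the pore of the large-conductance (BK) channel, was at 216, 298, 287 and 296 CPM in the control libraries and 413, 276, 372 and 409 CPM in the obesity libraries (log2 fold change 0.42 ± 0.20, adjusted p = 0.904, adjusted p = 0.328 with the block). Control library 1 was the lowest of the 8. Among the small-conductance (SK) genes, whose channels set the afterhyperpolarisation, Kcnn3 was at 33.9, 27.8, 32.1 and 40.2 CPM in the control libraries and 69.0, 43.7, 51.0 and 57.5 CPM in the obesity libraries (log2 fold change 0.72 ± 0.29, adjusted p = 0.904, adjusted p = 0.293 with the block), and every obesity library was above every control library. With main-strand sites only it did not reach an unadjusted p under 0.05. Kcnn1 was at 2.12, 10.3, 8.61 and 15.6 CPM in the control libraries and 26.0, 17.5, 18.1 and 17.2 CPM in the obesity libraries, also without overlap (log2 fold change 1.10 ± 0.52, adjusted p = 0.904, adjusted p = 0.387 with the block), on 3 to 35 reads per library. Kcnn2 averaged 6.51 ± 3.24 CPM in control and 8.50 ± 3.42 CPM in obesity. The sodium-activated genes did not reach an unadjusted p under 0.05, with Kcnt1 at 27.1 ± 6.19 CPM in control and 27.1 ± 10.1 CPM in obesity (log2 fold change -0.0043 ± 0.38, adjusted p = 0.999) and Kcnt2 at 7.09 ± 3.58 CPM in control and 6.39 ± 3.58 CPM in obesity.

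Inward rectifiers summed to 500.3 ± 91.4 CPM in control and 586 ± 134 CPM in obesity. Kcnj11, the pore of the ATP-sensitive channel, was at 45.2, 40.7, 39.1 and 55.0 CPM in the control libraries and 63.1, 77.0, 66.8 and 62.8 CPM in the obesity libraries (log2 fold change 0.58 ± 0.26, adjusted p = 0.904, adjusted p = 0.364 with the block). Every obesity library was above every control library, with the lowest obesity value 62.8 CPM and the highest control value 55.0 CPM. Its partner Abcc8, the sulfonylurea receptor, was at 0 to 12 reads per library, too few to follow.

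Of the G-protein gated rectifiers, which open downstream of inhibitory receptors, Kcnj9 was at 297, 105, 193 and 138 CPM in the control libraries and 438, 106, 182 and 151 CPM in the obesity libraries (log2 fold change 0.26 ± 0.44, adjusted p = 0.979). Both libraries numbered 1 were far above the rest of their groups, and without obesity library 1 the log2 fold change was -0.32. Kcnj6 was at 94.7, 96.8, 63.4 and 83.3 CPM in the control libraries and 95.8, 80.2, 137 and 116 CPM in the obesity libraries (log2 fold change 0.34 ± 0.24, adjusted p = 0.927). Kcnj3 was at 98.2, 64.6, 44.6 and 46.1 CPM in the control libraries and 64.6, 29.4, 91.2 and 74.7 CPM in the obesity libraries (log2 fold change 0.04 ± 0.34, adjusted p = 0.996), and Kcnj5, another of this kind, averaged 8.69 ± 9.65 CPM in control and 9.64 ± 5.13 CPM in obesity. The glial rectifiers that buffer potassium averaged 48.1 ± 29.9 CPM in control and 62.0 ± 33.4 CPM in obesity for Kcnj16 and 29.9 ± 15.3 CPM in control and 25.2 ± 7.57 CPM in obesity for Kcnj10, and Kcnj12 averaged 32.9 ± 6.33 CPM in control and 24.5 ± 7.87 CPM in obesity. Kcnj14 was at 0 reads in both libraries numbered 1 and at 4 to 15 reads in the others.

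The leak genes of the Kcnk family, which set the resting potential, had a summed level of 186 ± 23.3 CPM in control and 171 ± 32.8 CPM in obesity. They had 4 genes above and 4 below 0 in log2 fold change and 0 at an unadjusted p under 0.05 in the fits with and without the block. Kcnk1 was at 54.4, 48.4, 83.7 and 35.0 CPM in the control libraries and 21.5, 65.9, 38.5 and 38.3 CPM in the obesity libraries (log2 fold change -0.43 ± 0.35, adjusted p = 0.928). Kcnk10, a mechanosensitive subunit, averaged 30.4 ± 8.48 CPM in control and 35.1 ± 10.3 CPM in obesity. Kcnk2, its close relative, averaged 28.9 ± 4.83 CPM in control and 33.7 ± 8.25 CPM in obesity. Both overlapped between the diets, as did the acid-sensitive Kcnk9 at 33.2 ± 9.53 CPM in control and 28.1 ± 20.2 CPM in obesity and Kcnk3 at 22.9 ± 9.57 CPM in control and 17.1 ± 1.41 CPM in obesity. Kcnk13, Kcnk16 and Kcnk4 had means of 3.16 to 6.99 CPM in either group.

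The auxiliary subunits were few in this table. Kcnmb2, a beta subunit that inactivates BK channels, was at 44.5, 14.2, 12.5 and 29.8 CPM in the control libraries and 69.8, 19.9, 45.3 and 43.0 CPM in the obesity libraries (log2 fold change 0.82 ± 0.44, adjusted p = 0.907, adjusted p = 0.294 with the block). It was higher in obesity in all 4 pairs, and both libraries numbered 1 were the highest of their groups. Kcnmb4, the neuronal BK beta subunit, averaged 2.39 ± 2.18 CPM in control and 5.03 ± 3.79 CPM in obesity. Kcne3 was at 0 reads in both libraries numbered 1. Kcnrg, a soluble regulator of Kv assembly, averaged 6.02 ± 1.45 CPM in control and 6.17 ± 2.69 CPM in obesity.

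Of the 50 genes, 13 also had sites on the strand opposite to the one carrying most of their reads, 19 sites in all. In a RefSeq list of a later rat assembly (GRCr8) protein-coding genes overlapped Kcnd2, Kcnh3, Kcnh7, Kcnj9, Kcnk16, Kcnk2 and Kcnv2, so the gene of some of their reads can be uncertain.

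Opposite-strand sites of Kcnn3, Kcnma1 and Kcnq3, named after their values were seen, were higher in obesity at an unadjusted p under 0.05. Kcnn3 had 1 such site, at chr2:188961734-188961736, minus strand, with 1, 3, 1 and 8 reads in the control libraries and 29, 3, 23 and 8 reads in the obesity libraries (log2 fold change 2.04 ± 0.88, adjusted p = 1.00). On the main strand alone Kcnn3 was 33.2, 25.8, 31.3 and 34.2 CPM in the control libraries and 47.5, 41.3, 37.9 and 52.2 CPM in the obesity libraries, still without overlap, and did not reach an unadjusted p under 0.05 with or without the block (adjusted p = 0.518 and 0.921). The BK gene Kcnma1 had an opposite-strand site at chr15:450961-450964, minus strand, with 17, 19, 11 and 13 reads in the control libraries and 56, 12, 64 and 25 reads in the obesity libraries (log2 fold change 1.21 ± 0.51, adjusted p = 1.00). Kcnq3 had such a site at chr7:106884233-106884242, plus strand, with 0, 4, 0 and 2 reads in the control libraries and 17, 5, 9 and 22 reads in the obesity libraries (log2 fold change 2.93 ± 1.02, adjusted p = 1.00), where every obesity library was above every control library.

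In all, 4 of the 19 opposite-strand sites were higher in obesity at an unadjusted p under 0.05 and 0 lower, while over all 3081 opposite-strand sites of the table the shares were 4.54% and 0.617%. Of the 19 sites, 14 had a log2 fold change above 0, against 62.4% of the 3081. Opposite-strand sums of Kcnj3 averaged 15.5 CPM in control and 12.2 CPM in obesity, and those of Kcnj9 34.2 CPM in control and 33.9 CPM in obesity. Of the reads of all genes in the table, 2.04, 2.31, 1.74 and 2.16% lay on the opposite strand in control and 3.45, 1.90, 3.06 and 2.49% in obesity. Obesity library 2 lay within the control range. The part of this table-wide share in the channel values was not tested. With main-strand sites only, 4 of the 50 genes were higher at an unadjusted p under 0.05 (Kcnb2, Kcnj11, Kcns3 and Kcnh1) and 0 lower, against 2.54% of all genes higher, and with the block 9 were higher and 0 lower, against 4.76%.

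**Figure D3:**
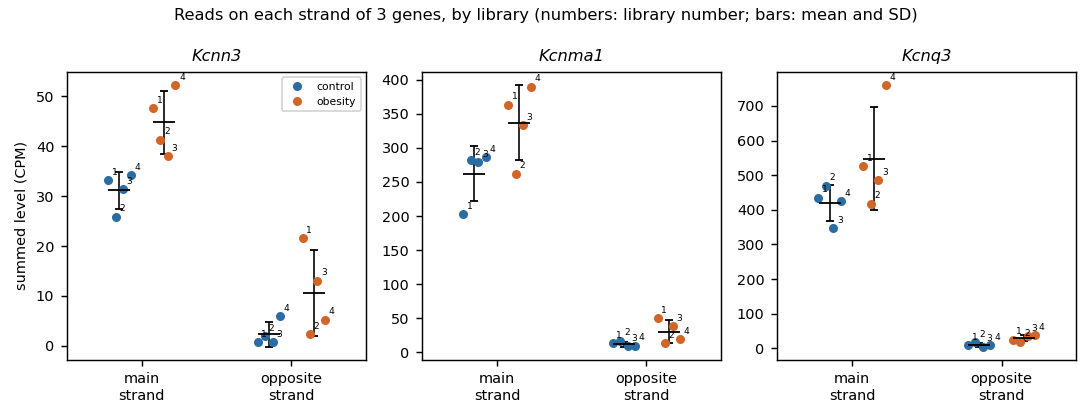
Summed level in CPM on the main and on the opposite strand of Kcnn3, Kcnma1 and Kcnq3, with 1 point per library (control in blue, obesity in orange, numbered by library) and bars for the mean and SD of 4. On the main strand of Kcnn3 and on the opposite strand of Kcnq3 every obesity library is above every control library.

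Of the 50 genes, 10 had 20 or more sites, holding 377 of the 539 sites and 68.3% of the reads. Over all 528 genes with 20 or more sites the median log2 fold change was 0.17 and 76.7% lay above 0. With the block, 24.1% of the 528 were higher at an unadjusted p under 0.05. For the 10 channel genes with as many sites the median was 0.18 and 9 lay above 0. With the block 4 of the 10 were higher (Kcnq3, Kcnma1, Kcnb2 and Kcnq5). For genes with 5 to 19 sites the medians were 0.06 over all 3200 genes and 0.34 over the 13 channel genes, of which 5 were higher with the block, against 7.97% of all. The 15 channel genes with 2 to 4 sites had a median of -0.16, against -0.02 over all. The 12 channel genes with 1 site had a median of 0.34, against -0.10 over all. Genes with 20 or more sites held 25.6 to 30.01% of all reads in control and 29.7 to 33.1% in obesity, and the part of this in the channel values was not tested.

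**Figure D4:**
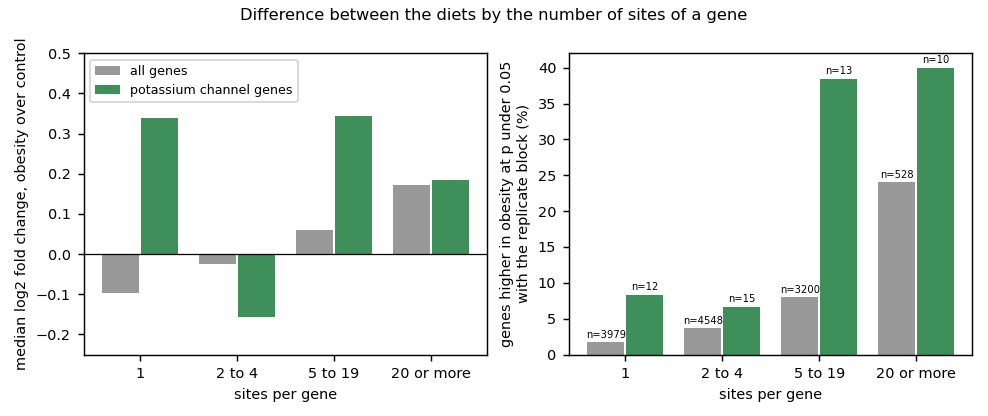
Left, median log2 fold change (obesity over control) by the number of sites of a gene, and right, the percent of genes higher in obesity at an unadjusted p under 0.05 with the replicate block, for all genes (grey) and for the 50 potassium channel genes (green), with the number of genes above each bar on the right. In the class of 20 or more sites the medians are 0.17 and 0.18, while in the class of 5 to 19 sites they are 0.06 and 0.34.

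Reads of the channel genes lay at many sites, and the site farthest 3′ on the main strand was often not the one with the most reads. Sites of both strands were counted, and sites primed inside A-rich stretches were not told apart from RNA ends. From 1 to 61 sites were counted per gene, the most in Kcnd2 over 507 kb and in Kcnma1, with 56 sites over 704 kb. Of the 38 genes with 2 or more sites, the site farthest 3′ held the most reads in 15. In Kcnd2 the leading site, chr4:48815350-48815368 on the plus strand, held 30.1% ± 3.68 of the gene's reads in control and 24.1% ± 3.92 in obesity, and the groups overlapped. In Kcnq3 the leading site, chr7:106871903-106871911 on the minus strand, held 10.6% of its reads over all libraries, so its reads were spread over many sites. Sites were not classed as exonic or intronic, since an annotation of this assembly was not used here.

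Taken site by site, 322 of the 539 sites had a log2 fold change above 0 and 217 below, with a median of 0.23 against 0.05 over all 73922 sites. Among main-strand sites with a gene, 308 of 520 channel sites and 32438 of all 62832 sites lay above 0. At an adjusted p under 0.1 there were 0 channel sites, both without the block (0.00135% of all sites) and with it (0.00541%). Of the channel sites 11 were higher and 5 lower at an unadjusted p under 0.05, against 1.72% and 1.41% of all sites. With the block 23 were higher and 10 lower, against 2.79% and 3.31%. DESeq2 with the block gave 4 channel sites at an adjusted p under 0.1, among them sites of Kcnj9 (chr13:90706765-90706783, minus strand), Kcnq5 (chr9:28128496-28128514, minus strand) and Kcnd2 (chr4:48504024-48504051, plus strand), these 3 higher in obesity and named after their values were seen, against 6.46% of all sites to which it gave an adjusted p (18 of the 539), and edgeR with the block gave 2, among them the Kcnj9 site, without both libraries numbered 2, against 0.495% of all sites. The reads per site were few, with a median of 7.25 per library over the 539 sites, and 184 sites had a mean of at least 10 reads.

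Sites to name had to combine no overlap with an unadjusted p under 0.05 and a mean of at least 10 reads. This left 3 higher sites and 1 lower site. The share of all sites meeting these conditions together was not counted, so the numbers only say which sites are named. A Kcnc1 site at chr1:102434422-102434498, plus strand, had 6, 8, 0 and 5 reads in the control libraries and 49, 15, 31 and 14 reads in the obesity libraries (log2 fold change 2.40 ± 0.74, adjusted p = 1.00). A Kcnb2 site at chr5:3153452-3153504, minus strand, had 11, 2, 5 and 5 reads in the control libraries and 21, 13, 23 and 20 reads in the obesity libraries (log2 fold change 1.59 ± 0.62, adjusted p = 1.00). Each of these sites held under 10% of its gene's reads in every library. A Kcnq5 site at chr9:28128496-28128514, minus strand, the larger of the higher sites, had 70, 45, 37 and 20 reads in the control libraries and 119, 59, 96 and 91 reads in the obesity libraries (log2 fold change 0.97 ± 0.39, adjusted p = 1.00). The lower site, in Kcnj9 at chr13:90703612-90703632, minus strand, had 25, 19, 16 and 25 reads in the control libraries and 14, 8, 6 and 9 reads in the obesity libraries (log2 fold change -1.30 ± 0.52, adjusted p = 1.00). In this gene the direction of a site did not follow that of the sum, as another site was higher.

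Whether a gene's reads were shared differently among its sites was tested with diffSpliceDGE in edgeR for the 38 channel genes with 2 or more sites. At an adjusted p under 0.1 there were 0, without the block (0.0121% of the 8276 genes tested) and with it (0.0121%). At an unadjusted p under 0.05 there was 1, Kcnk2 (adjusted p = 1.00), against 1.82%, and with the block 4, among them Kcnj9, Kcnc1 and Kcnk2, against 3.11%.

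Shares of a gene's reads at 1 site are given for the 4 genes with the largest difference in mean share among sites whose share did not overlap between the diets, in genes with at least 20 reads in every library. Some sites whose shares overlapped differed by more than the smallest of these. In the EAG gene Kcnh1 the site at chr13:111227911-111227931, plus strand, held 48.2, 45.3, 51.9 and 51.4% in the control libraries and 26.7, 34.6, 9.78 and 23.6% in the obesity libraries, that is 49.2% ± 3.05 against 23.7% ± 10.4 (mean ± SD, n = 4). Every obesity library was below every control library in this share, while the reads themselves overlapped, with 27, 24, 14 and 19 reads in the control libraries and 12, 27, 9 and 17 reads in the obesity libraries (log2 fold change -0.40 ± 0.53, adjusted p = 1.00). Usage of sites in Kcnh1 did not reach an unadjusted p under 0.05 with or without the block (adjusted p = 1.00 in both fits). Another Kcnh1 site, at chr13:111180531-111180537, plus strand, had 0, 2, 2 and 3 reads in the control libraries and 0, 7, 36 and 16 reads in the obesity libraries (log2 fold change 2.76 ± 1.14, adjusted p = 1.00), and was named after its values were seen. In Kcnk2 the site at chr13:107728905-107728905, minus strand, held 38.5, 25, 8.70 and 11.4% in the control libraries and 0, 0, 2.53 and 0% in the obesity libraries, on 0 to 15 reads per library (log2 fold change -3.85 ± 1.23, adjusted p = 1.00 for the site).

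In Kcnj9 the site at chr13:90706765-90706783, minus strand, held 10.2, 13.5, 10.6 and 16.1% in the control libraries and 42.5, 17.3, 32.6 and 30.3% in the obesity libraries. Every obesity library was above every control library in this share, while the reads themselves overlapped, with 43, 22, 26 and 30 reads in the control libraries and 251, 23, 105 and 69 reads in the obesity libraries (log2 fold change 1.72 ± 0.55, adjusted p = 1.00, adjusted p = 0.273 with the block). DESeq2 with the block gave this site an adjusted p of 0.0244. In Kcnc1 the share of the site at chr1:102434422-102434498, plus strand, was 1.06% ± 0.724 against 5.48% ± 2.51, also without overlap.

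**Figure D5:**
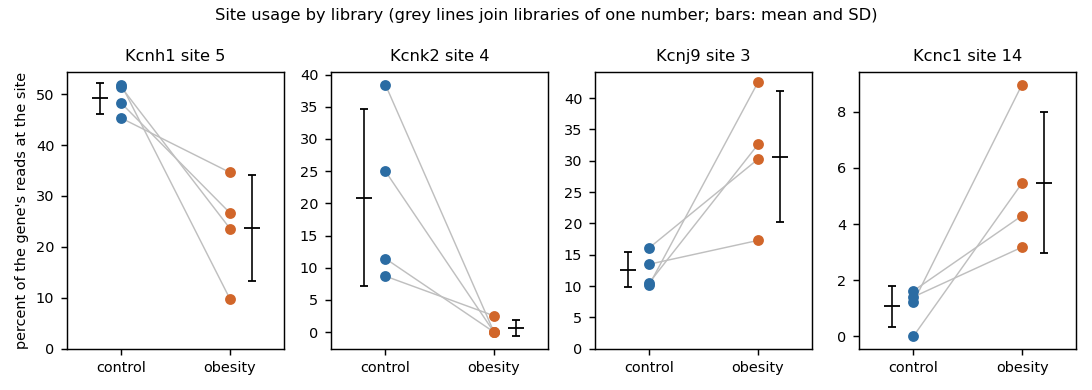
Percent of a gene's reads at 1 site of Kcnh1, Kcnk2, Kcnj9 and Kcnc1 on the vertical axis, with 1 point per library (4 control in blue, 4 obesity in orange), grey lines between libraries of the same number, and bars for the mean and SD. The groups do not overlap in any of the 4 panels, since the sites were named for that, and Kcnk2 is at 0% in 3 of the 4 obesity libraries.

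Known partners that the choice of genes leaves out were examined from a list of 22, of which 16 were in the table. At an unadjusted p under 0.05, 1 was higher in obesity and 0 lower without the block, and 2 were higher and 3 lower with it. The shares of all genes were 2.77% higher and 2.52% lower without the block and 5.03% and 5.83% with it. None of the 16 had an adjusted p under 0.1 in edgeR in either fit, and the median log2 fold change was -0.014. Dpp6, an auxiliary subunit of Kv4 channels, was at 945, 1278, 1188 and 1116 CPM in the control libraries and 2108, 1230.4, 1518 and 1387 CPM in the obesity libraries (log2 fold change 0.46 ± 0.20, adjusted p = 0.904). Obesity library 2 again lay within the control range. Its relative Dpp10 was at 499 ± 92.3 CPM in control and 630.1 ± 175 CPM in obesity (adjusted p = 0.396 with the block). The 3 lower with the block were Calm2, a calmodulin gene, Kcnab2, a Shaker beta subunit, and Vapa, which tethers Kv2 channels to the endoplasmic reticulum, with log2 fold changes of -0.39, -0.43 and -0.43. Dpp6 has 119 sites and Dpp10 84, both in the class of 20 or more.

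Some channel sites were missing from both libraries numbered 1 alone. There were 25 such sites among the 539 (4.64%), against 2326 of all sites (3.15%). They include the whole of Kcng1, Kcnj14 and Kcne3, and single sites of genes such as Kcnd2 and Kcnq3. These zeros were shared by a control and an obesity library of the same number.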

How the data were processed

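RNA ends were measured by WTTS-seq in hypothalamus from 4 control rats and 4 rats with diet-induced obesity, and the groups are those of the labels. A paper linked to these libraries describes another exposure than the labels do, so nothing was taken from it. The deposited table holds unnormalized read counts for each polyadenylation site, which the authors made with Bowtie2 2.2.3 on Rnor_6.0 per their processing notes. The counting, strand and site rules are not given in the sources used here. The lowest site total was 30 reads, so sites with fewer reads had been removed, and a line holding only a library total was left out.

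Counts were summed per gene over all sites of either strand and compared in edgeR 4.0.16 (glmQLFit with robust = TRUE, glmQLFTest, TMM) under R 4.3.3, over all genes, all sites, or sites within genes (diffSpliceDGE, Simes p), with Benjamini-Hochberg adjustment. The threshold was an adjusted p of 0.1, and an unadjusted p under 0.05 was also counted. The scripts were tested on simulated data. Alternatives were DESeq2 1.42.0, other scaling, a filter on low counts, the main strand only, and single libraries or pairs left out. Residuals of same-numbered libraries correlated at r = 0.240 to 0.369 and those of other pairs at -0.203 to 0.0742 (10257 genes), so the number was used as a block although the labels do not say what it marks. Libraries were 1 per rat, amplified without molecular identifiers, so errors cover the spread between rats and counting alike.

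Values of some of the 50 genes are not reported here, though counts and sums include them. The set of genes was proposed, and the named-gene rule and the role, partner and marker lists were drawn up, with earlier results of these data known. Named were the 3 highest genes per role, genes with an unadjusted p under 0.05 in the gene tests or in site usage without the block, up to 4 higher and 4 lower sites with no overlap, an unadjusted p under 0.05 and a mean of at least 10 reads, the 4 genes with the largest difference in site share (at least 20 reads in every library, no overlap), and partner genes with an unadjusted p under 0.05. Marker lists covered hypothalamus, neurons, astrocytes, oligodendrocytes, microglia, vessels, choroid plexus, anterior pituitary and thalamus.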

Additional observations from a re-analysis of the deposited data

Results flagged for a closer look

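In groups of 4, each named gene, site or share and each role sum was checked for a library far from the other 3, in 94 checks. A library was singled out in 6 of these checks, where chance gives about 5, and some libraries were singled out more than once. Kcnma1, the BK pore gene, was low in control library 1, at 216 CPM, with the other 3 libraries at 287 to 298 CPM. The KCNQ genes summed low in control library 3, at 867 CPM, with the other 3 libraries at 946 to 962 CPM. The leak genes summed low in obesity library 1, at 122 CPM, with the other 3 libraries at 182 to 191 CPM. Kcnn1, an SK gene, was high in obesity library 1, at 26.0 CPM, with the other 3 libraries at 17.2 to 18.1 CPM. Kcnk2, a mechanosensitive leak gene, was high in control library 3, at 36.0 CPM, with the other 3 libraries at 25.8 to 27.6 CPM. The Kcnk2 site whose share was lower in obesity held reads in 1 obesity library alone, library 3, at 2.53% of the gene's reads, with the other 3 at 0%. With the others tied at 0%, any share in library 3 would have been singled out.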

How the results depend on the processing

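The 539 sites had a median of 7.25 reads per library, and no setting with equal depth was run. For the summed level of the 50 genes, the log2 ratio of the group means, obesity over control, stayed above 0 in the settings run for it. It was 0.21 to 0.32 without single libraries, 0.25 with library totals and 0.21 on the main strand. After each count of channel genes or sites, the share of all genes or sites tested in that setting stands in parentheses. Channel genes higher at an unadjusted p under 0.05, 5 (2.77%) as reported, were 11 (5.03%) with the replicate block, 8 (3.27%) with DESeq2, 10 (4.08%) with DESeq2 and the block, 9 (4.76%) on the main strand with the block, 10 (6.95%) with the block without both libraries numbered 2, 2 (1.75%) without both libraries numbered 1, and 2 to 8 (1.92 to 4.24%) without single libraries. Lower genes, 0 (2.52%) as reported, were 1 (8.17%) with the block without the libraries numbered 2 and 0 to 1 (1.58 to 5.72%) without single libraries. At an adjusted p under 0.1, with the block, 4 (4.63%) genes and 2 (0.495%) sites passed without the libraries numbered 2, and 2 (5.05%) genes and 4 (6.46%) sites with DESeq2. Higher sites, 11 (1.72%) as reported, were 23 (2.79%) with the block, 19 (2.15%) and 27 (3.54%) with it without the libraries numbered 1 or 2, 17 (2.41%) with DESeq2 and the block, and 8 to 21 (1.37 to 2.38%) without single libraries, the most without obesity library 2. Lower sites, 5 (1.41%) as reported, were 10 (3.31%) with the block, 10 (2.89%) and 13 (3.92%) with it without the libraries numbered 1 or 2, 2 (2.10%) after filterByExpr, and 2 to 12 (0.879 to 3.14%) without single libraries. Genes with changed site usage, 1 (1.82%) as reported, were 4 (3.11%) with the block, 0 (2.21%) and 5 (4.19%) with it without the libraries numbered 1 or 2, 3 (2.79%) on the main strand with the block, 0 (1.75%) without both libraries numbered 1, and 0 to 3 (1.90 to 4.46%) without single libraries. The causes were not tested.

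Of 606 log2 fold changes of 29 named genes under alternatives, 30 changed sign, in 8 genes with small or uneven values. With the block and without the libraries numbered 3, Kcng1 was 0.22, Kcnj3 -0.33, Kcnk10 -0.057 and Kcnt1 0.046. Without those numbered 4, Kcne3 was -0.52, Kcnj3 -0.22, Kcnt1 0.34 and Kcnrg -0.13. Kcnrg was -0.031 with the block, -0.064 and -0.12 with it without the libraries numbered 1 or 2, -0.0026 without the libraries numbered 1, -0.033 with DESeq2 and the block, and -0.031 on the main strand with the block. Without single libraries the ranges were -0.016 to 0.16 for Kcnc1, -0.52 to 1.38 for Kcne3, -0.97 to 0.10 for Kcng1, -0.17 to 0.31 for Kcnj3, -0.32 to 0.56 for Kcnj9, -0.20 to 0.27 for Kcnrg and -0.18 to 0.22 for Kcnt1.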

Other observations

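Marker lists for other cells and neighbouring tissue were summed in each library. The 6 astrocyte genes summed to 1872 to 2601 CPM in control and 1484 to 2130.4 CPM in obesity, and the 2 microglia genes in the table of 5 listed to 55.1 to 90.0 CPM in control and 19.3 to 65.9 CPM in obesity. The 5 genes of vessels and pericytes summed to 80.3 to 138 CPM in control and 93.4 to 123 CPM in obesity, and the 5 thalamic genes to 146 to 231 CPM in control and 104 to 253 CPM in obesity. Ttr, the only choroid plexus marker of 4 in the table, was at 95.2 CPM in obesity library 4 and at 0 to 1.49 CPM in the other 7. The 3 anterior pituitary genes in the table of 5 listed were at 124 CPM in obesity library 2, with the other 7 libraries at 5.95 to 55.8 CPM.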
